A study of Mus musculus with 27 samples.

Results

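The step from 24 h to 72 h after the last of 8 carbon tetrachloride (CCl4) injections was described in mouse hepatic stellate cells (HSCs). Its members were chosen by their labels alone and are the 4 chronic 24 h and the 4 chronic 72 h libraries, 8 of the 27 libraries of the series, with all genes. Of 53379 genes in the table, 18758 were counted highly enough to be tested. The series followed HSC transcription through a first and through repeated liver injury. Bulk RNA sequencing was done on HSCs from healthy mice, from mice after a single CCl4 injection and from mice after 4 weeks of semi-weekly injections.

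The chronic mice were male Balb/c, 8 to 10 weeks old when treatment began, and received 0.5 µL CCl4 per g body weight in mineral oil into the peritoneum. The acute mice, given 1 injection of the same dose, and the healthy mice, which were not injected, were also male Balb/c and were 10 to 12 weeks old. HSCs were released by perfusing the liver, gated in the sorter as cells whose retinoid fluoresces under ultraviolet light, and lysed for RNA without culture. The gate takes cells that still hold retinoid, so cells that had lost it fall outside the libraries. By the methods each repeat was a separate experiment. The labels do not say how many mice went into a library.

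HSCs lie between hepatocytes and the sinusoidal endothelium and store vitamin A when quiescent. After injury they become contractile, secrete collagen and other matrix, and answer to TGF-beta, platelet-derived growth factor and the stiffness of their surroundings. When injury stops, part of this program is lost and the cells return towards, though not fully to, the quiescent state. The comparison asks which genes had changed by 72 h, a point at which no further injection had been given.

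The 24 h libraries held 6947304, 7580709, 12234912 and 13045948 counts (replicates 1 to 4) and the 72 h libraries 7107719, 6521748, 12586226 and 13032229, so each group was made of a pair of lower-depth and a pair of higher-depth libraries. Levels are given in CPM, the counts of a gene relative to the scaled total of its library. Summed CPM of marker lists are relative to the unscaled total. The scaling factors were 0.933 to 0.962 at 24 h and 0.980 to 1.075 at 72 h, so scaled sums would be relatively higher at 24 h. With scaling, the hepatocyte sums given below would no longer be apart between the groups. Pearson's r of log2 CPM across genes was 0.911 to 0.95 among the 24 h libraries, 0.934 to 0.947 among the 72 h libraries and 0.884 to 0.927 between them. The summed CPM of 10 stellate cell identity genes was 14200 to 17200 at 24 h and 20900 to 25800 at 72 h. Dcn alone had a mean of 8395 CPM at 24 h and 13590 CPM at 72 h and was not called. Of the 10 genes, 2 were higher and 1, Des, was lower. Markers of other liver cells were also counted. The sum of 20 hepatocyte markers was 1410 to 5170 CPM at 24 h and 5480 to 8370 CPM at 72 h, that of 15 macrophage markers 784 to 4670 and 1280 to 3530 CPM, and that of 14 sinusoidal endothelial markers 290 to 540 and 556 to 867 CPM. None of the macrophage markers, 3 of the hepatocyte markers and 1 of the endothelial markers were higher at 72 h, and none of these 3 lists had a lower member or a marker at 0 in all 8 libraries. In bulk samples, fewer cells of a type and less RNA per cell cannot be told apart.

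**Figure D1:**
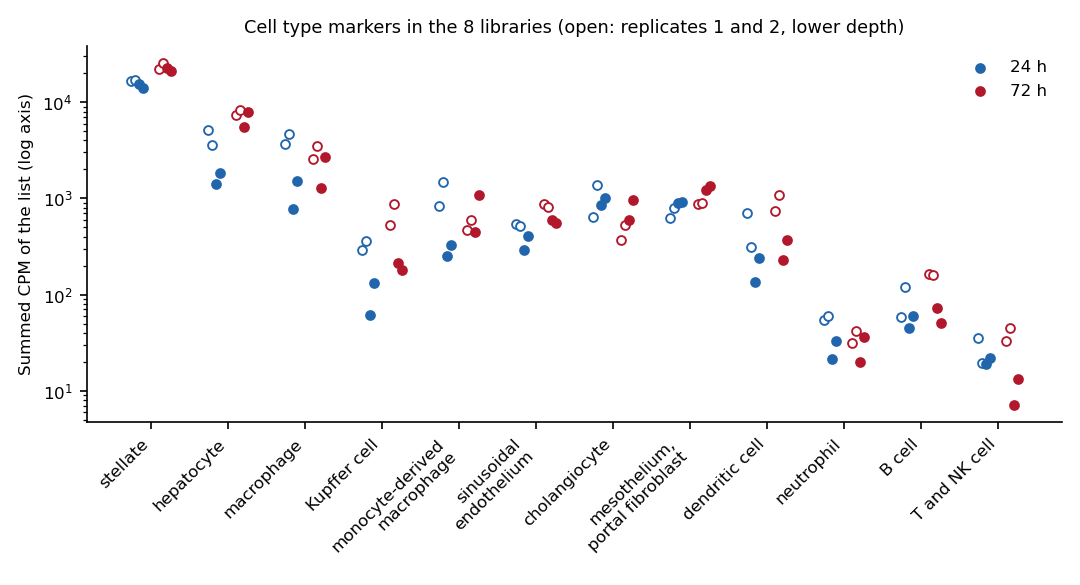
Summed CPM of marker lists for each liver cell type (log axis), relative to unscaled library totals, in every chronic 24 h and chronic 72 h library. The hepatocyte sums lay between 1410 and 5170 CPM at 24 h and between 5480 and 8370 CPM at 72 h, and the macrophage sums of the groups overlapped. Relative to scaled totals the hepatocyte sums would no longer be apart.

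From 24 h to 72 h the level of 684 genes fell (3.65% of the 18758) and that of 886 rose (4.72%), 1570 in all (8.37%), by edgeR's quasi-likelihood test at an adjusted p below 0.05 and a fold above 2. "Lower", "higher", "fell" and "rose" are used below for genes that passed both. The median log2 fold change over all tested genes was 0, with quartiles of -0.39 and 0.49. Large changes were more often upward: 353 genes were over 4-fold higher and 158 over 4-fold lower, and 86 against 33 passed 16-fold. The libraries of the groups did not overlap for 3639 genes (19.4%), among them 1374 of the 1570. Of the called protein coding genes 563 fell and 763 rose, whereas 91 pseudogenes fell and 25 rose; reads of pseudogenes can come from their parent genes. Each depth class on its own gave fewer calls, 274 lower and 158 higher between the lower-depth pairs and 606 lower and 774 higher between the higher-depth pairs. Scaling by library size alone gave 529 lower and 1081 higher genes, that is 67.1% higher against 56.4%, and moved the median of all genes by 0.114. A single gene, Med28, a subunit of the Mediator complex, had a step that differed between the depth classes (difference of 6.64 on the log2 scale, adjusted p = 9.57e-09 by edgeR). It was at 0.80 and 0.86 CPM in 72 h replicates 1 and 2 and at 44.7 to 91.7 CPM in the other 6 libraries. At an unadjusted p below 0.05 there were 881 of the 18758 genes, fewer than 1 in 20.

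**Figure D2:**
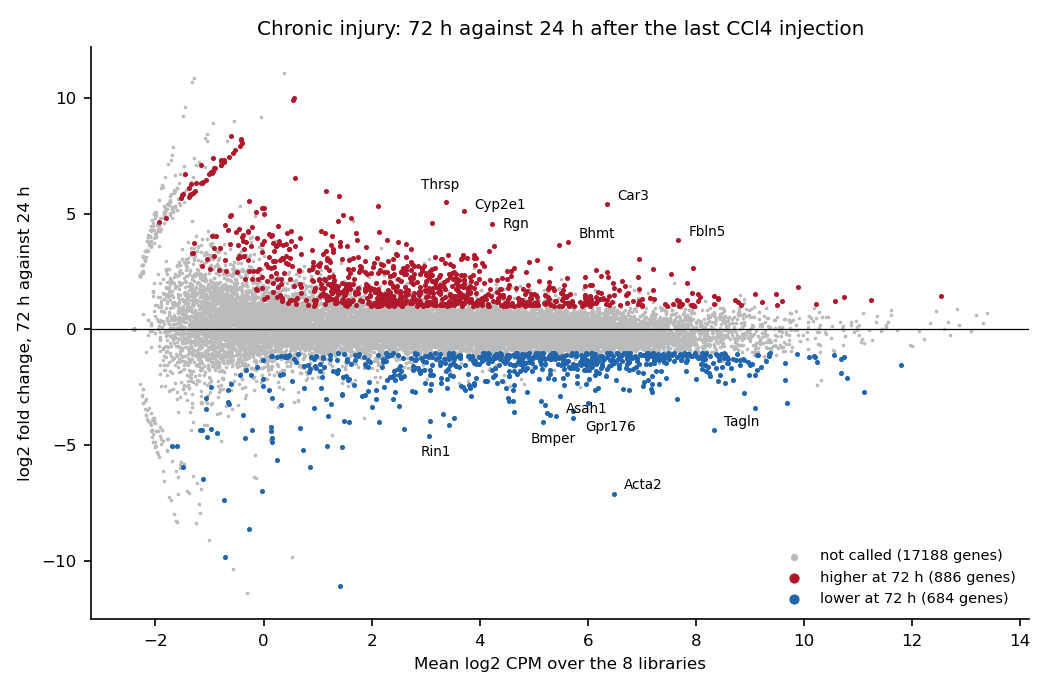
Log2 fold change from chronic 24 h to chronic 72 h (vertical axis) against the mean log2 CPM of the 8 libraries (horizontal axis), 1 point per tested gene. The 684 lower and 886 higher genes are coloured, and the steepest falls of well-counted genes without overlap between the groups were those of Acta2 (-7.09), Rin1 (-4.58) and Tagln (-4.33).

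Contractile genes fell. Of 25 smooth muscle contractile and actin-binding genes, all tested, 20 were lower at 72 h (80.0%, against 3.65% of all genes), none was higher, and the median log2 fold change was -1.75. Acta2 (chr19:34241090-34255590 in GRCm38, minus strand), which encodes the smooth muscle actin by which activated HSCs are recognized, was at 289, 1055, 2272 and 2563 CPM in 24 h replicates 1 to 4 and at 6.27, 4.00, 2.49 and 32.0 CPM in 72 h replicates 1 to 4. The groups lay far apart, and 72 h replicate 4 stood above the other 3. The log2 fold change was -7.09 ± 0.89 (SE, n = 4 and 4, adjusted p = 1.2e-05), or -8.52 without 72 h replicate 4. Healthy HSCs held 3.13 ± 2.69 CPM of Acta2 (SD, n = 4), and the 72 h level was not called different from it (log2 fold change 1.85, adjusted p = 0.085).

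Tagln, an actin-bundling protein, fell from 489 to 3011 CPM at 24 h to 43.7 to 176 CPM at 72 h (-4.33 ± 0.52, adjusted p = 7.83e-06, and -4.97 without 72 h replicate 4, its highest 72 h library). The actin-binding Cnn2 fell by 2.12 on the log2 scale, the myosin light chain Myl9 by 2.57, the tropomyosin Tpm2 by 3.07, the crosslinker Flna by 2.16 and the smooth muscle myosin Myh11 by 2.22. Myl9 overlapped between the groups, since 24 h replicate 1 held 56.5 CPM and 72 h replicate 1 82.1 CPM. Myh11 overlapped too (means of 54.5 CPM at 24 h, SD 40.4, and 11.7 CPM at 72 h, SD 5.14). Neither Myl9 nor Myh11 was called between the lower-depth pairs (adjusted p = 0.121 and 0.29 by edgeR). Desmin (Des), the intermediate filament of mouse HSCs, went from 640, 643, 706 and 856 CPM to 339, 266, 278 and 262 CPM (-1.31 ± 0.17, adjusted p = 1.79e-05). Low-level smooth muscle genes were almost lost: Actg2 was at 0.75 to 8.72 CPM at 24 h and at 0 in all 4 72 h libraries, at least 10.8-fold lower with 3 counts per library as the floor, and Cnn1 was at 1.2 to 10.6 CPM at 24 h and seen at 72 h only in replicate 4, at 0.71 CPM. Mylk, the myosin light chain kinase, changed by less than 2-fold (-0.55 ± 0.14, adjusted p = 0.00796). Of the 20 lower genes, 15 remained so whichever library was left out, 10 were also called between the lower-depth pairs and 19 between the higher-depth pairs. Tpm1, another tropomyosin, read 139 CPM in 24 h replicate 2 against 723 to 1798 CPM in the other 24 h libraries.

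Contractile genes are classic targets of serum response factor, which binds the CArG box, a run of A and T letters between CC and GG. In the 250 bases before the RefSeq gene start (GRCm38.p6), found for 11688 of the tested genes, a CArG box on either strand occurred in 1.34% of all promoters, in 3.16% of those of lower genes, in 1.24% of those of higher genes and in 4 of 21 contractile promoters (19.0%). With at most 1 letter of the core replaced, the shares were 9.33% of all and 6 of 21 (28.6%). The promoters of Acta2, Myl9 and Cnn2 are shown because these genes fell and hold such letters, set in capitals, with Acta2 matching only in the relaxed form and at a pair of places. The other strict matches were Vcl, which fell (-1.40, a call lost without 24 h replicate 3 or 4 or 72 h replicate 3 or 4, adjusted p 0.0941 to 0.135), and Fhl2, which was not called (0.02, adjusted p = 0.987), and the other relaxed match, Flnc, was not called either (-1.75, adjusted p = 0.0706). A match is a description of the letters and not of binding.
Acta2, chr19:34255374-34255623, minus strand: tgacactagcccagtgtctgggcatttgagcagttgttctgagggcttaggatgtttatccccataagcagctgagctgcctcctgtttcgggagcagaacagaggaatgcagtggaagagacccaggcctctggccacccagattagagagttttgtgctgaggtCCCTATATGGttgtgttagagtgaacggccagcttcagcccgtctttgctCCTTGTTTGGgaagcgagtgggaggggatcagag
Myl9, chr2:156775214-156775463, plus strand: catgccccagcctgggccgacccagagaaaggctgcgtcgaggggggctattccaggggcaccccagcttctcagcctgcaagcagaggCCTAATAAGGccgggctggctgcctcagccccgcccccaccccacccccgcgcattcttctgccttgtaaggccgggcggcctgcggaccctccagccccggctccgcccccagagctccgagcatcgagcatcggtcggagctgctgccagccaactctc
Cnn2, chr10:79988350-79988599, plus strand: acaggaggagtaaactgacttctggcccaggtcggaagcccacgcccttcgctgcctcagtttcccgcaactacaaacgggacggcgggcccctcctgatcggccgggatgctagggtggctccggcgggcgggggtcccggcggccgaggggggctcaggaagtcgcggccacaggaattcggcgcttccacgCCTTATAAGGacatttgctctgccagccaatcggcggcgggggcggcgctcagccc
The shorter letters GGAATG, read on both strands and known as the core bound by the TEAD partners of YAP and TAZ, occurred in 13.1% of all promoters, in 10 of 21 contractile promoters (47.6%) and in 7 of 18 promoters of YAP and TAZ targets (38.9%). They were about as frequent in the promoters of lower genes (18.5%) as in those of higher genes (16.7%).

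**Figure D3:**
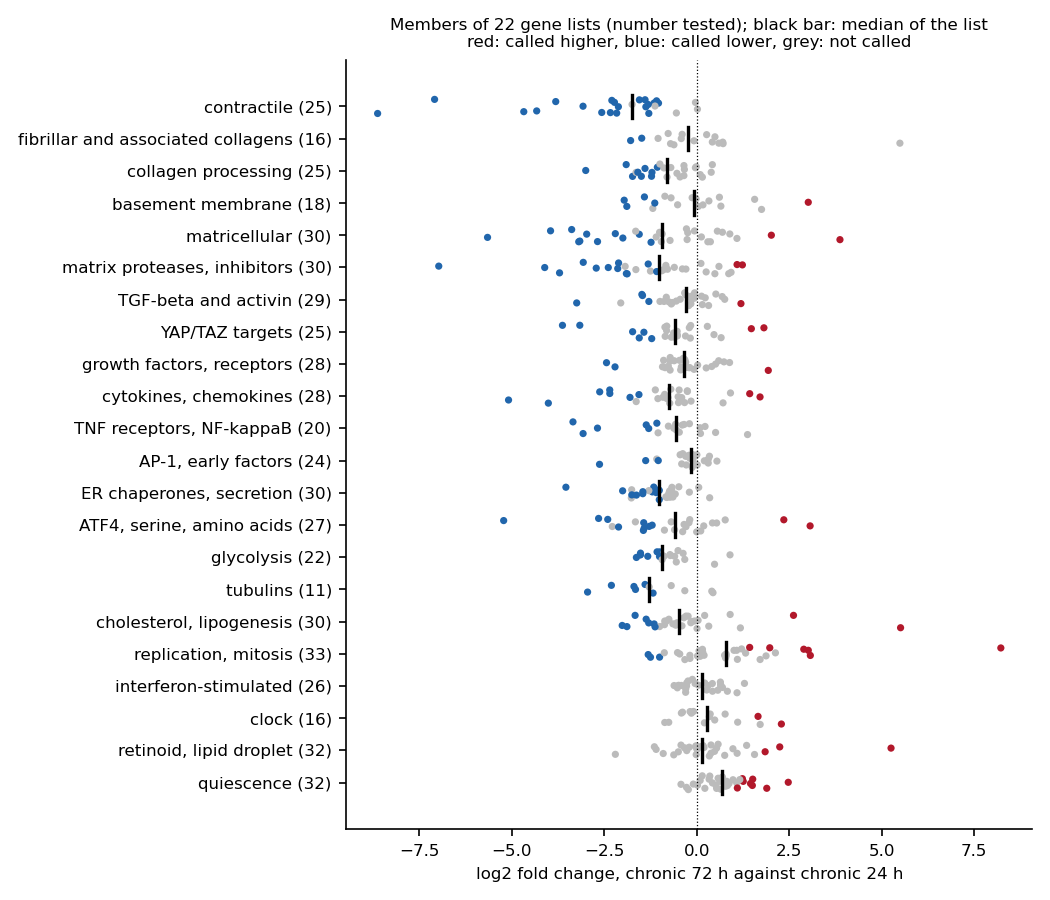
Log2 fold changes from chronic 24 h to chronic 72 h of the tested members of each gene list, 1 point per gene with the median marked. The medians of the 22 lists ran from -1.75 in the contractile list to 0.67 in the quiescence list and 0.78 in the replication and mitosis list, and members at the counting floor are drawn at fitted values that are no bounds.

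Of 16 collagens in a list of mainly fibril-forming and fibril-associated chains, 2 were lower (12.5%, against 3.65% of all genes) and none higher, with a median of -0.23. The list also held Col6a1, Col6a2, Col6a3, Col8a1 and Col8a2, chains of collagen types VI and VIII. Col1a1 (chr11:94936224-94953042 in GRCm38, plus strand), a chain of type I collagen, the main scar protein, was at 3987, 5779, 6301 and 6524 CPM at 24 h and at 4676, 2928, 5299 and 4008 CPM at 72 h. The groups overlapped (-0.42 ± 0.34, adjusted p = 0.457). Its partner Col1a2 (-0.07 ± 0.25, adjusted p = 0.894) and the type III collagen Col3a1 (0.27 ± 0.24, adjusted p = 0.524) overlapped too.

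Against healthy HSCs all 3 were still high at 72 h, Col1a1 by 4.20 on the log2 scale, Col1a2 by 2.09 and Col3a1 by 2.10, and 10 of the 16 collagens were above healthy, where 7.88% of all genes were higher and 4.2% lower, 12.1% in all. The comparison with healthy uses the same 72 h libraries. The 2 collagens that fell were Col8a1, a short-chain network collagen (from 277 to 700 down to 116 to 144 CPM, -1.79), and Col12a1, which decorates the fibril surface (from 35.8 to 147 down to 21.7 to 49.5 CPM, -1.49). Col5a2, a chain of the fibril-nucleating type V collagen, had non-overlapping groups (300 to 504 against 194 to 296 CPM) but a change under 2-fold (-0.71 ± 0.22, adjusted p = 0.0334).

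Of 25 genes that modify, fold or crosslink collagen, 9 were lower (36%) and none higher, with a median of -0.80. Lox, the lysyl oxidase that crosslinks fibrils, was at 276, 412, 1051 and 786 CPM at 24 h and at 52.9, 46.9, 112 and 103 CPM at 72 h, with no overlap (-3.00 ± 0.45, adjusted p = 7.56e-05). Its relative Loxl2 fell by 1.74, the lysyl hydroxylase Plod2 by 1.5, the prolyl hydroxylase subunit P4ha2 by 1.91 and the collagen chaperone Fkbp10 by 1.22 on the log2 scale. Lox and Loxl2 were still above healthy at 72 h (3.41 and 1.37), while Plod2, P4ha2 and Fkbp10 were not called against it. P4hb, the other prolyl hydroxylase subunit, read 795 CPM in 24 h replicate 2 against 1921 to 2310 CPM in the other 24 h libraries.

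Of 18 basement membrane genes, 4 were lower (22.2%, against 3.65% of all genes) and 1 higher (5.56%, against 4.72%), with a median of -0.07. The lower ones included Col4a1 and Col4a2, the chains of the common type IV collagen. Col4a1 was at 2059 to 4747 CPM at 24 h and 672 to 1146 CPM at 72 h (-1.89), and Col4a2 at 1459 to 2570 and 640 to 968 CPM (-1.41); both were near their healthy means of 920 and 758 CPM, from which they were not called different. Col15a1, a collagen at the edge of the basement membrane, fell by 1.96 and was still above healthy by 4.24. Col4a4, a minor type IV chain, rose from at most 1.37 CPM to 5.57 to 7.36 CPM.

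Among 30 matricellular proteins, proteoglycans and other glycoproteins, 11 were lower (36.7%) and 2 higher, with a median of -0.94, and the 2 were 1 without 24 h replicate 1 or 72 h replicate 4. Thbs1, thrombospondin-1, which can release active TGF-beta, fell from 4111, 4962, 6723 and 6968 CPM to 781, 835, 1151 and 781 CPM (-2.68 ± 0.33, adjusted p = 9.08e-06). Tnc, tenascin-C of provisional matrix, fell from 1282, 1693, 2453 and 2079 CPM to 170, 111, 329 and 111 CPM (-3.38 ± 0.41, adjusted p = 7.56e-06). Neither gene overlapped between the groups, and both remained above healthy, by 3.18 and 2.68.

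Of the CCN family of matrix signalling proteins 5 members fell, Ccn1 by 1.55, Ccn2 by 3.16, Ccn4 by 2.20, Ccn5 by 2.0 and Ccn3 by 3.95 on the log2 scale. Ccn2, the connective tissue growth factor, varied most at 72 h (311, 348, 35.8 and 766 CPM), and its change was -3.82 without 72 h replicate 4. The proteoglycan Vcan fell by 2.98 and Fbln2, a matrix fibulin, by 3.19. Has2, the synthase of hyaluronan, was at 2.25 to 11.5 CPM at 24 h and was counted at 72 h only in replicate 4, at 0.39 CPM.

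The 2 that rose are elastic fibre proteins. Fbln5, which assembles elastin, was at 87.1, 69.7, 37.2 and 38.9 CPM at 24 h and at 315, 865, 1142 and 1083 CPM at 72 h. It was among the 10 steepest rises of well-counted genes whose groups did not overlap (3.87 ± 0.42, adjusted p = 2.13e-06) and ended near its healthy mean of 579 CPM. Mfap4, a microfibril protein, was at 70.8 to 166 and 324 to 778 CPM (2.02 ± 0.62, adjusted p = 0.0276), a call lost without 24 h replicate 1, 24 h replicate 3 or 72 h replicate 4 (adjusted p = 0.0683, 0.0822 and 0.0807), and stood 5.28 above healthy.

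Of 30 matrix proteases and inhibitors, 12 were lower (40%) and 2 higher, with a median of -1.01. Timp1, the inhibitor of matrix metalloproteinases that protects scar from degradation, fell from 172, 128, 152 and 143 CPM to 7.2, 8.43, 9.49 and 19.98 CPM (-3.71 ± 0.87, adjusted p = 0.0049). The groups lay far apart, and the 72 h level was still 4.15 above the healthy mean of 0.63 CPM. Stromelysin-1 (Mmp3) fell by 4.11, Mmp19 by 1.90 and the membrane protease Adam19 by 2.14. Mmp10, at up to 23.1 CPM at 24 h, was at 0 in 3 of the 72 h libraries and at 0.24 CPM in the other. Its 24 h mean of 10.4 CPM (SD 10.3) was at least 24.3-fold above a floor of 3 counts per library. The groups of Mmp10 overlapped, and it was not called between the lower-depth or the higher-depth pairs (adjusted p = 0.334 and 0.0784 by edgeR).

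The plasminogen activator Plau (-2.39) and its receptor Plaur (-2.72) fell as well. The 2 higher members were Mmp11, a protease of stromal cells (from 47.0 to 49.1 up to 74.9 to 163 CPM, 1.24), and Adamts5, which cleaves proteoglycans (1.09, and 0.97 without 24 h replicate 4, under 2-fold).

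**Figure D4:**
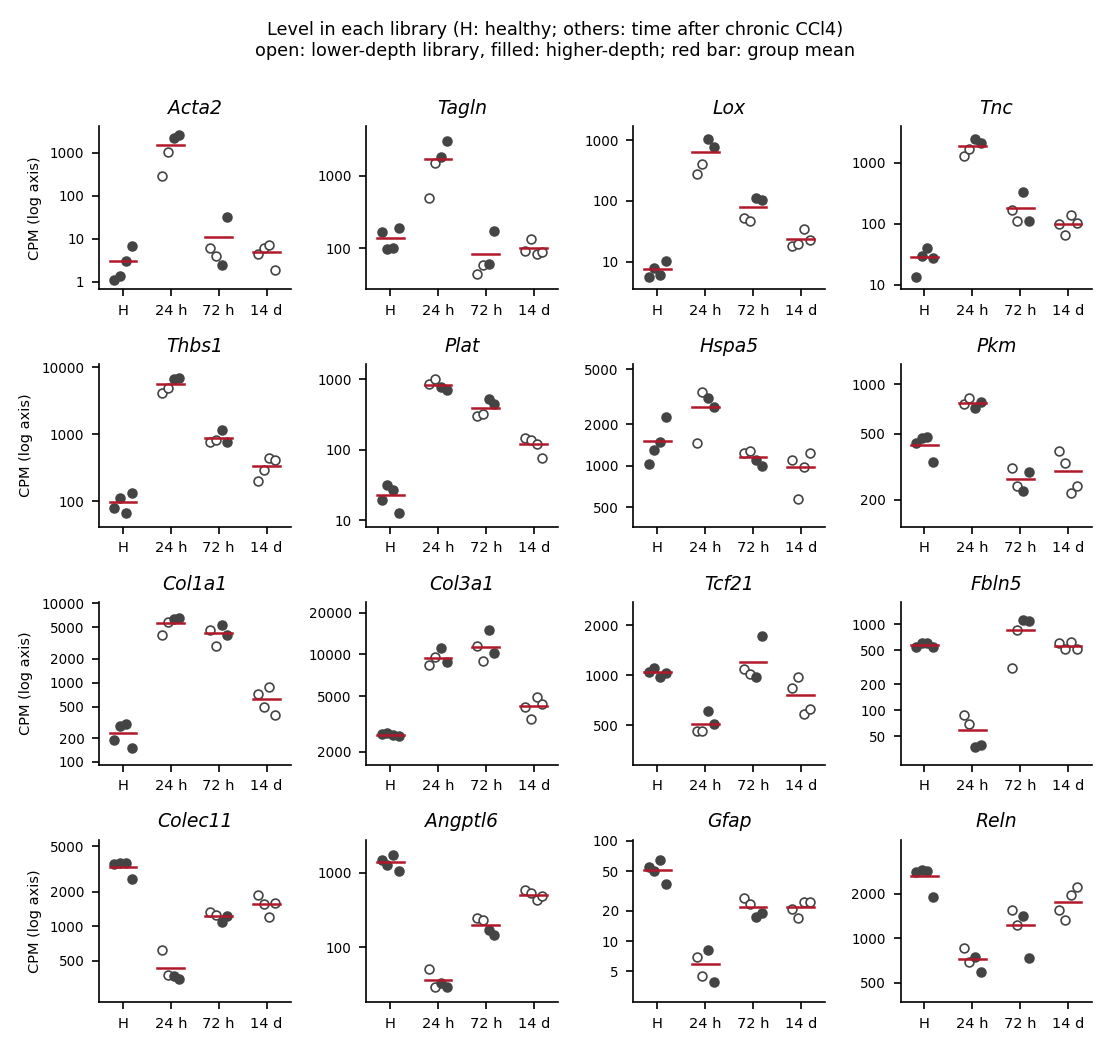
CPM (log axis) of 16 genes in every healthy, chronic 24 h, chronic 72 h and chronic 14 d library, 1 panel per gene, with open points for lower-depth libraries and a line at the group mean. Acta2 fell from 289 to 2563 CPM at 24 h to 2.49 to 32.0 CPM at 72 h, while Col1a1 held 3987 to 6524 and 2928 to 5299 CPM.

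The TGF-beta pathway was counted from ligands to feedback targets. Of 29 ligands, receptors, inhibitors and feedback targets, 4 were lower (13.8%, against 3.65% of all genes) and 1 higher, with a median of -0.30. Among the ligands, Tgfb3 fell from 300 to 643 CPM to 113 to 250 CPM (-1.48 ± 0.27, adjusted p = 0.000465) and Inhba, the activin A subunit, by 1.47, while Tgfb1 changed by less than 2-fold (-0.88 ± 0.24, adjusted p = 0.0127). The integrin subunit Itgav, which activates latent TGF-beta, fell by 1.29. Inhba and Itgav overlapped between the groups, and neither was called between the lower-depth pairs (adjusted p = 0.364 and 0.24 by edgeR). Bambi, a decoy receptor that restrains the pathway, rose from 402, 285, 250 and 237 CPM to 671, 624, 608 and 786 CPM (1.2 ± 0.23, adjusted p = 0.000821) and ended near its healthy mean of 606 CPM. Fstl3, which binds activin, fell by 3.25 (adjusted p = 0.0233), a call lost without 24 h replicate 4 or without 72 h replicate 1, 2 or 3 (adjusted p 0.0523 to 0.0739).

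Of 25 targets of YAP and TAZ, the co-activators that report tension, 6 were lower (24.0%) and 2 higher, with a median of -0.60. Besides Ccn1 and Ccn2 they included Ankrd1, at 8.24, 28.4, 83.8 and 42.7 CPM at 24 h and 2.0, 4.29, 2.41 and 4.46 CPM at 72 h (-3.63 ± 0.71, and -3.01 without 24 h replicate 3), and the receptor tyrosine kinase Axl, at 1140 to 1423 against 389 to 614 CPM (-1.43 ± 0.15, adjusted p = 1.11e-06). The 2 higher ones were Igfbp3, which binds insulin-like growth factors (275 to 986 against 1707 to 2080 CPM, 1.82), and Gadd45a, a stress and cell cycle gene (1.48).

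Of 28 growth factor genes and receptors, 2 were lower (7.14%) and 1 higher, with a median of -0.34, and the 2 were 1 without 24 h replicate 2, 3 or 4 or without 72 h replicate 1 or 2. Ereg, an epidermal growth factor receptor ligand, fell from 140 to 532 CPM to 39.3 to 100 CPM (-2.44 ± 0.45, adjusted p = 0.000649). Pdgfd, a ligand of the platelet-derived growth factor receptor, rose from 7.96 to 14.5 CPM to 39.3 to 54.6 CPM (1.94 ± 0.31, adjusted p = 0.000125). The receptor Pdgfrb itself changed by less than 2-fold over all libraries (-0.93 ± 0.23, adjusted p = 0.00722) and by -1.18 without 72 h replicate 3, and Hgf, the hepatocyte growth factor, overlapped between the groups (-0.28 ± 0.27, adjusted p = 0.557).

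Of 28 cytokine, chemokine and prostaglandin genes, 7 were lower (25%) and 2 higher, with a median of -0.75, and the 7 were 4 without 72 h replicate 2. Il11, a cytokine that drives fibroblasts, fell from 8.69, 27.7, 12.5 and 22.6 CPM to 0.80, 0.71, 1.79 and 0.94 CPM (-4.01 ± 0.50, adjusted p = 9.28e-06). The monocyte attractant Ccl7 fell by 2.35 and Cxcl14 by 2.62. Cxcl12, the chemokine by which HSCs hold bone marrow-derived cells, rose from 2626, 3557, 5158 and 3326 CPM to 9842, 9116, 9515 and 11140 CPM (1.43 ± 0.23, adjusted p = 0.000129) and ended near the healthy mean of 7678 CPM. Cxcl10, the other that rose (1.71), attracts T cells.

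Of 20 tumor necrosis factor receptor family and NF-kappaB feedback genes, 6 were lower (30.0%) and none higher, with a median of -0.56. Tnfrsf12a, the receptor of TWEAK, fell from 48.7, 101, 124 and 179 CPM to 11.6, 11.1, 5.84 and 25.1 CPM (-3.07 ± 0.52, adjusted p = 0.000258), and the co-stimulatory receptor Tnfrsf9 by 3.35. Tnfrsf11b, osteoprotegerin, fell by 1.36 to a level below that of healthy HSCs (-1.38). Of 24 AP-1 and immediate early factors 3 were lower (12.5%), among them Fosl1, an AP-1 subunit (-2.63), and the nuclear receptor Nr4a2 (-1.38), and none was higher.

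The calls among secretory pathway genes were all downward. Of 30 endoplasmic reticulum chaperones and transport genes, 13 were lower (43.3%), none was higher, and 28 had a negative log2 fold change, with a median of -1.01. Sec61a1, the channel through which secreted proteins enter the reticulum, was at 800, 1094, 1110 and 1171 CPM at 24 h and at 310, 261, 303 and 362 CPM at 72 h (-1.75 ± 0.15, adjusted p = 7.72e-08). Creb3l1, a factor that raises secretory capacity and collagen transcription, fell from 273 to 318 CPM to 61.9 to 81.4 CPM (-2.0 ± 0.19, adjusted p = 6.76e-07). Neither gene overlapped between the groups, and neither was called different from healthy at 72 h.

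Hyou1, a large chaperone, fell furthest of the 13, from 109, 180, 217 and 241 CPM to 15.7, 11.9, 21.9 and 14.7 CPM (-3.54 ± 0.66, adjusted p = 0.000752), below its healthy mean of 64.9 CPM. Hspa5, the main chaperone BiP, was at 1470, 3402, 3110 and 2647 CPM at 24 h and 1246, 1284, 1108 and 990 CPM at 72 h (-1.2 ± 0.33, adjusted p = 0.0146), with the libraries of the groups closest between 24 h replicate 1 and 72 h replicate 2. The disulfide isomerase Pdia6 fell by 1.17 and Sec24d, a coat protein needed to export collagen, by 1.46.

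The endoplasmic reticulum stress element, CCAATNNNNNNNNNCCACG, was looked for on both strands of the same promoters. It occurred in 20 of 11688 (0.171%), in 2 of 443 promoters of lower genes (0.451%) and in none of the 645 promoters of higher genes. In the secretory list it occurred in 7 of 24 promoters (29.2%). Of these genes, Hspa5 and Pdia6 fell, while Hsp90b1, Calr, Canx, Dnajc3 and Creld2 were not called. The promoters of Hspa5 and Pdia6 are shown with the element in capitals.
Hspa5, chr2:34771840-34772089, plus strand: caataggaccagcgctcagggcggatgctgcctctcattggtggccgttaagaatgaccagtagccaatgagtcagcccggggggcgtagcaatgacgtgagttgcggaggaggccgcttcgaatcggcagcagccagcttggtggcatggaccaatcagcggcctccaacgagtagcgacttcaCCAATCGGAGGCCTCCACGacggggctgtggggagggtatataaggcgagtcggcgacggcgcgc
Pdia6, chr12:17266339-17266588, plus strand: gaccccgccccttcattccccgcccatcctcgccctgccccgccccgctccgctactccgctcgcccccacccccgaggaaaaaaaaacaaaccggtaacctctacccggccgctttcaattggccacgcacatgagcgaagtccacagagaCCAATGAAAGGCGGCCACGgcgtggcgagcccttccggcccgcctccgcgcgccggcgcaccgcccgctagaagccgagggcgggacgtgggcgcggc
The element ended 46 bases before the gene start in Hspa5 and 79 bases before it in Pdia6. The letters TGATGNAA, a core bound by ATF4 with its partners, occurred in 2.53% of all promoters. The shares were 2.48% for lower genes and 2.17% for higher genes. Among promoters of ATF4 target and serine synthesis genes they occurred in 5 of 24 (20.8%). Of these genes, Pycr1 and Slc7a11 fell, while Chac1, Asns and Nupr1 were not called.

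Of 27 ATF4 targets and genes of amino acid and serine synthesis, 9 were lower (33.3%) and 2 higher, with a median of -0.60. Psat1, of serine synthesis, fell from 8.77 to 14.7 CPM to 1.25 to 4.13 CPM (-2.11), Mthfd2, of mitochondrial folate metabolism, by 2.65 and the cystine carrier Slc7a11 by 1.42. The 2 higher genes, Shmt1 of cytosolic folate metabolism (2.35) and Cth of cysteine synthesis (3.07), are strongly expressed in hepatocytes, whose marker sum was also higher at 72 h. Cth lost its call without 24 h replicate 3 (adjusted p = 0.059) or replicate 4 (adjusted p = 0.0604), and the list then had 1 higher member.

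Of 22 genes of glucose uptake and glycolysis, 8 were lower (36.4%) and none higher, with a median of -0.94, and the 8 were 5 without 24 h replicate 3 and 4 without 24 h replicate 4 or 72 h replicate 3. Pkm, pyruvate kinase, fell from 760, 823, 713 and 784 CPM to 310, 243, 226 and 292 CPM (-1.52 ± 0.19, adjusted p = 7.79e-06). The aldolase Aldoa fell by 1.32 and the lactate carrier Slc16a3 by 1.52. Eno1, an enolase, read 2.13 CPM in 72 h replicate 1 against 56.3 to 79.3 CPM in the other 72 h libraries.

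Of 11 tubulins, 6 were lower (54.5%) and none higher, with a median of -1.29. Tubb6 fell from 580, 868, 877 and 1034 CPM to 183, 177, 125 and 194 CPM (-2.31 ± 0.20, adjusted p = 1.23e-07), Tubb2a by 1.70 and Tuba1a by 1.40. Tubulin genes are near-identical in part, so single members are less certain than the group.

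Of 30 genes of cholesterol synthesis and lipogenesis, 7 were lower (23.3%) and 2 higher, with a median of -0.47. The lower ones were on the cholesterol side, and they included the regulator Srebf2, which fell by 1.30, and the squalene epoxidase Sqle, which fell by 2.02. The higher ones were on the fatty acid side. Scd1, the stearoyl desaturase, rose from 42.1, 61.5, 67.7 and 79.7 CPM to 336, 356, 633 and 216 CPM (2.62 ± 0.49, adjusted p = 0.000669) and stood 3.25 above healthy, and Thrsp, a lipogenic nuclear protein, rose by 5.51.

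The calls among genes of quiescent HSCs were all upward. Of 32, 8 were higher (25%, against 4.72% of all genes), none was lower and 28 had a positive log2 fold change, with a median of 0.67. Angptl6, an angiopoietin-like secreted protein, was at 51.4, 28.7, 33.0 and 29.4 CPM at 24 h and at 243, 230, 171 and 147 CPM at 72 h (2.48 ± 0.35, adjusted p = 3.54e-05). Colec11, a collectin of HSCs, rose from 619, 380, 372 and 349 CPM to 1335, 1249, 1097 and 1230 CPM (1.51 ± 0.23, adjusted p = 0.0001). Neither overlapped between the groups, and both stayed well below their healthy means of 1393 and 3290 CPM (-2.82 and -1.42).

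Gfap, the glial filament protein of quiescent HSCs, rose from 3.92 to 8.16 CPM to 17.6 to 27.1 CPM (1.89 ± 0.24, adjusted p = 1.27e-05). Tcf21, a mesenchymal transcription factor, rose from 465, 464, 610 and 508 CPM to 1097, 1015, 980 and 1724 CPM (1.24 ± 0.21, adjusted p = 0.00028), near its healthy mean of 1043 CPM. Lhx2, a factor that holds HSCs quiescent, rose by 1.10 (0.95, under 2-fold, without 24 h replicate 4), the convertase Pcsk6 by 1.5 and the adhesion protein Ntm by 1.46. Ngfr, the neurotrophin receptor, rose by 1.26 (adjusted p = 0.0358), a call lost when any library but 72 h replicate 4 was left out (adjusted p 0.0527 to 0.118), and that library, at 34.8 CPM, lay within the 24 h range.

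The other 24 quiescence genes were not called. Reln, reelin, was at 587 to 851 CPM at 24 h and 728 to 1560 CPM at 72 h (0.78 ± 0.21, adjusted p = 0.0132), against 2618 CPM in healthy HSCs. Ecm1, which keeps latent TGF-beta inactive, was at 1738 to 2854 and 1162 to 3465 CPM (-0.09 ± 0.31, adjusted p = 0.893), against 9208 CPM in healthy HSCs. Of the 32 genes, 19 were below healthy at 72 h and 1 was above, against 4.2% and 7.88% of all genes.

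Of 32 retinoid and lipid droplet genes, 3 were higher (9.38%) and none lower, with a median of 0.13, and the 3 were 5 without 24 h replicate 1. Lrat, which makes the stored retinyl ester, was at 974 to 1284 CPM at 24 h and 1066 to 2247 CPM at 72 h (0.54 ± 0.31, adjusted p = 0.269). Cyp26a1, which degrades retinoic acid and is induced by it, was counted at 24 h only in replicate 4 (0.32 CPM) and was at 2.51 to 6.23 CPM in all 72 h libraries. Dgat2, which makes triglyceride, rose by 1.85 and Adh1, a retinol-oxidizing alcohol dehydrogenase abundant in hepatocytes, by 2.25, the latter call lost without 24 h replicate 3, 24 h replicate 4 or 72 h replicate 4 (adjusted p 0.055 to 0.0783).

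Of 16 circadian clock genes 2 were higher (12.5%), Hlf (2.29) and Per3 (1.66), the latter not without 24 h replicate 1, 24 h replicate 2 or 72 h replicate 4 (adjusted p 0.0607 to 0.0799), which left 1. The time of day at which mice were killed is not in the labels. None of 26 interferon-stimulated genes was called in either direction, with a median of 0.13; without 24 h replicate 1 there were 5 higher and without 24 h replicate 3 there was 1.

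Replication and mitosis split. Of 33 genes 6 were higher (18.2%) and 3 lower (9.09%), with a median of 0.78, or 0.75 with the genes at the counting floor set at their bounds. The higher genes were mitotic and counted at a few CPM. Ccnb1, a mitotic cyclin, was at 0 to 0.60 CPM at 24 h and 1.57 to 6.03 CPM at 72 h (3.07). Ccnb2 was at 0 in every 24 h library and at 0.86 to 6.97 CPM at 72 h, at least 7.67-fold higher, and Cenpf, a kinetochore protein, rose by 2.90 (4.09 without 24 h replicate 1).

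Mcm2, of the replicative helicase, was among the lower genes, from 36.7, 59.9, 49.9 and 50.6 CPM to 27.2, 22.4, 16.1 and 17.3 CPM (-1.25 ± 0.17, adjusted p = 2.21e-05). Mki67, a marker of cycling cells, overlapped between the groups (1.84 to 12.1 and 7.68 to 16.4 CPM, adjusted p = 0.428). The 6 higher genes were 3 without 24 h replicate 2, 3 or 4 or 72 h replicate 1 or 4, and the 3 lower ones were 1 without 24 h replicate 4.

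Among well-counted genes (mean log2 CPM above 3) whose groups did not overlap, the 10 steepest falls were those of Acta2, Rin1, Tagln, Mmp3, Bmper, Ccn3, Gpr176, Hspb7, Asah1 and Timp1. Rin1, an effector of Ras, was at 26.5, 43.8, 39.6 and 54.8 CPM at 24 h and at 2.0, 0.71, 2.33 and 1.65 CPM at 72 h (-4.58 ± 0.46, adjusted p = 1.04e-06). Bmper, a secreted modulator of bone morphogenetic proteins, had the smallest adjusted p of the 10 and went from 89.2, 122, 171 and 199 CPM to 9.73, 10.0, 9.34 and 7.76 CPM (-3.98 ± 0.25, adjusted p = 4.04e-10), with tight 72 h libraries near the healthy mean of 8.68 CPM. Gpr176, an orphan receptor, fell by 3.84 and the small heat shock protein Hspb7 by 3.81 (log2 fold change -4.45 without 72 h replicate 4). Asah1, the acid ceramidase, was at 124 to 186 CPM at 24 h and 9.33 to 14.4 CPM at 72 h, but it switched between such levels within other groups as well, with 124 CPM in 1 healthy library and 5.85, 8.09 and 16.7 CPM in the other 3. Its call was lost without 72 h replicate 1 (adjusted p = 0.058) or replicate 2 (adjusted p = 0.0591).

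The 10 steepest rises were those of Thrsp, Car3, Cyp2e1, Serpina6, Rgn, Fbln5, Bhmt, Gm5096, Bhmt-ps1 and G6pc. Apart from Fbln5, Gm5096 and the pseudogene Bhmt-ps1, these are genes that hepatocytes express. Car3, a carbonic anhydrase, was at 14.8, 20.6, 8.33 and 9.84 CPM at 24 h and at 438, 346, 529 and 929 CPM at 72 h (5.39 ± 0.83, adjusted p = 0.000115). Cyp2e1, the enzyme that activates CCl4, rose from 0.70 to 5.85 CPM to 56.1 to 155 CPM (5.12 ± 0.79, and 5.87 without 24 h replicate 1). Rgn, regucalcin, rose by 4.57 and Bhmt, of methionine metabolism, by 3.76 (4.58 without 24 h replicate 1). Bhmt and Bhmt-ps1 share sequence and their reads could be split between them. Serpina6, the corticosteroid carrier, was at 0 in 2 of the 24 h libraries, and its rise of 4.58 was 6.44 without 24 h replicate 1, while that of G6pc, of glucose release, was 3.37 and 4.47.

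The hepatocyte list moved with these genes: all 20 members had a positive log2 fold change (median 1.55) and 3 were called. In the libraries closest in that list, 24 h replicate 1 and 72 h replicate 3, the unscaled list sums were 5170 and 5480 CPM, a ratio of 1.06. Their scaling factors were 0.961 and 1.022, so the scaled sums would be about equal. In scaled CPM, as for the genes below, Alb, albumin, differed by a ratio of 1.22. Between the same libraries Thrsp had a ratio of 66.3, Car3 of 35.7, Cyp2e1 of 12.9, Rgn of 12.8, Serpina6 of 7.67, Bhmt of 5.3 and G6pc of 4.16. Fbln5 had a ratio of 13.1. These genes, unlike Alb, were chosen for steep rises without overlap in the same libraries, so a higher level in the 72 h library was fixed in advance. Cyp2e1 is itself a member of the hepatocyte list. The pair also joins a lower-depth 24 h library with a higher-depth 72 h library. How much of these rises came from hepatocyte RNA was not tested.

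The step was set beside that of a single injury, which shares no library with it (acute 24 h, n = 3, acute 72 h, n = 4, all of higher depth). In the acute step 2110 genes were higher (11.2%) and 705 lower (3.76%), 15% of all genes together. Of the 684 genes lower in the chronic step, 120 were lower in the acute step too (17.5% of the chronic and 17% of the acute calls), 52 were higher and 512 were not called. Of the 886 higher in the chronic step, 432 were higher in the acute step (48.8% of the chronic and 20.5% of the acute calls) and 9 were lower. Across the 18758 genes, which are not independent, Pearson's r of the steps was 0.315 and Spearman's rho 0.308. The hepatocyte marker sum was 681 to 953 CPM at acute 24 h and 2530 to 5410 CPM at acute 72 h. Tested directly, the chronic step was lower than the acute step for 1212 genes (6.46%) and higher for 427 (2.28%), together 8.74%.

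Collagens differed in this test. Of the 16 listed, types VI and VIII included, 12 rose in the acute step and none in the chronic step, and 12 had a lower chronic step. Over all genes 11.2% rose in the acute step, 4.72% rose in the chronic step and 6.46% had a lower chronic step. Col6a1, Col6a2, Col6a3, Col8a1 and Col8a2 were among those that rose in the acute step. Col1a1 rose from 565 ± 45.8 CPM (SD, n = 3) at acute 24 h to 3914 ± 1891 CPM (SD, n = 4) at acute 72 h (2.79), and the chronic step was lower by -3.21 ± 0.52 (adjusted p = 0.000281). For Col3a1 the difference was -2.35 ± 0.37 (adjusted p = 0.000223).

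Of the 25 contractile genes 11 had a lower chronic step and none a higher one, against 6.46% and 2.28% of all genes. Acta2 was at 301, 253 and 150 CPM at acute 24 h and at 212, 621, 256 and 275 CPM at acute 72 h, with no difference called (0.54, adjusted p = 0.666), so that the steps differed by -7.63 ± 1.16 (adjusted p = 0.000178), and by -9.06 without chronic 72 h replicate 4. Lox rose in the acute step (1.64) and fell in the chronic one (difference of -4.64 ± 0.66, adjusted p = 7.13e-05). Thbs1 fell in both (-1.48 in the acute step), and its difference was not called (-1.2 ± 0.46, adjusted p = 0.101).

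Next to Acta2, the well-counted genes with the lowest difference were Fbln2 (-7.14), Cthrc1 (-7.07), Ccn5 (-6.85) and Nrep (-6.82). Cthrc1, a secreted protein of activated fibroblasts, rose in the acute step from 0 to 1.25 CPM to 3.9 to 56.7 CPM and was at 7.94 to 74.1 and 6.0 to 27.7 CPM in the chronic libraries, where its change was not called (-1.65 ± 0.75, adjusted p = 0.147). Its difference was -7.74 without chronic 72 h replicate 4, -7.83 without acute 24 h replicate 1 and -6.40 without acute 72 h replicate 3. Fbln2 and Ccn5 rose in the acute step (3.95 and 4.86) and fell in the chronic one. The difference of Nrep, a neuronal regeneration protein, was -7.62 without acute 24 h replicate 1.

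The highest differences were those of Hhip (4.64), Rasd1 (4.62), Inmt (4.57), Tmem100 (4.08) and Syt12 (4.04). Hhip, an inhibitor of hedgehog signalling, fell from 309 to 334 CPM to 11.7 to 21.3 CPM in the acute step and was already at 6.23 to 22.8 CPM at chronic 24 h. Inmt, a methyltransferase, fell in the acute step (-2.16) and rose in the chronic one from 120, 132, 45.7 and 46.3 CPM to 538, 397, 459 and 435 CPM (2.41). Without chronic 24 h replicate 1 the difference of Hhip was 5.26 and that of Tmem100 5.22.

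Of the 33 replication and mitosis genes, 31 rose in the acute step and 22 had a lower chronic step, against 11.2% and 6.46% of all genes. Mki67 rose from 4.12 ± 2.84 CPM to 168 ± 32.5 CPM in the acute step (5.34, adjusted p = 2.78e-05), with a difference of -4.56 ± 0.92 (adjusted p = 0.0022). Mcm2 rose in the acute step (1.40) and fell in the chronic one (difference of -2.65 ± 0.25, adjusted p = 1.36e-06). Of the 32 quiescence genes 10 had a higher chronic step and 1 a lower one, against 2.28% and 6.46% of all genes. Angptl6 (2.27 ± 0.48, adjusted p = 0.00327) and Colec11 (1.22 ± 0.34, adjusted p = 0.0195) were among the 10.

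**Figure D5:**
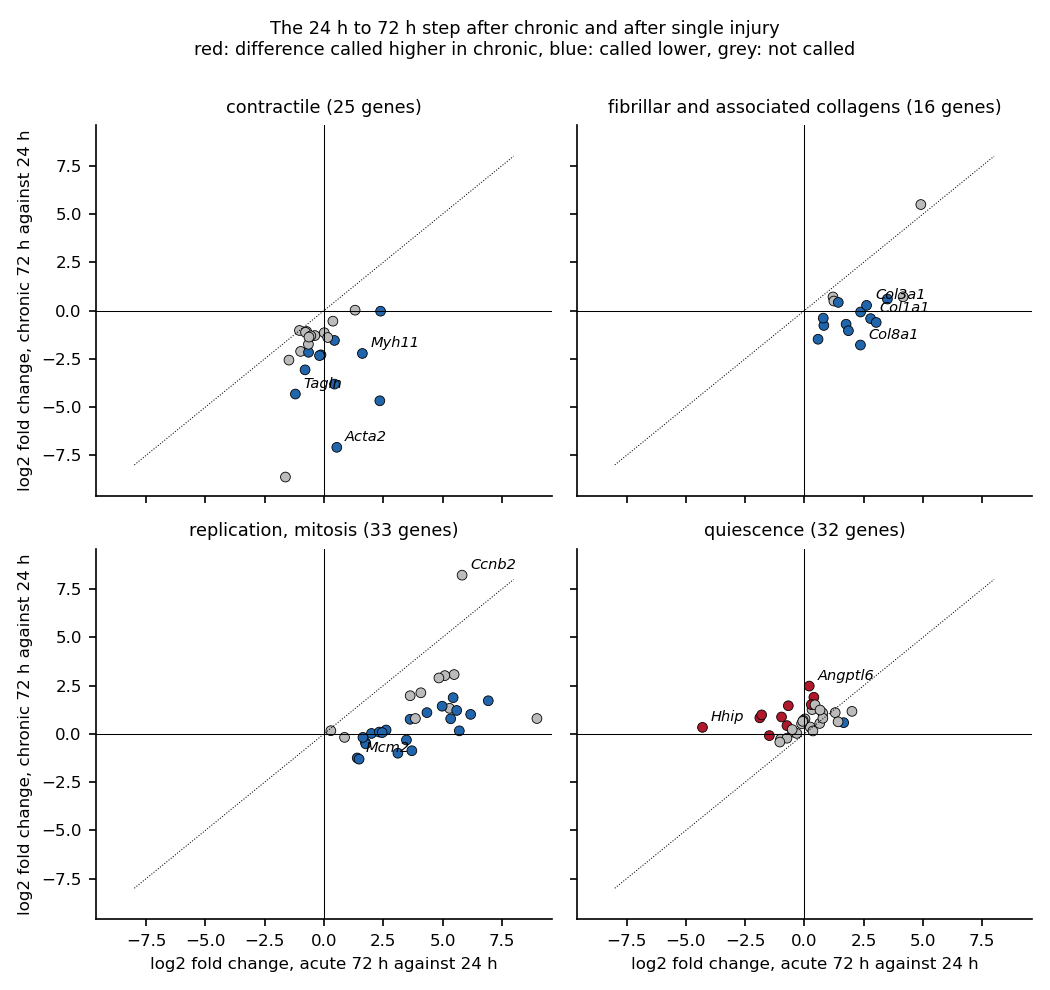
Log2 fold change from 24 h to 72 h after repeated injury (vertical axis) against that after a single injury (horizontal axis) for 4 gene lists, 1 point per gene, with the line of equal change dotted and genes with a called difference coloured. Of the 16 collagens 12 lay below the line by the test and of the 33 replication and mitosis genes 22 did, while 10 of the 32 quiescence genes lay above it.

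The study drew gene lists of its own. Of 172 tested genes of its fibrogenic program 139 were lower (80.8%) and none higher, with a median of -1.95, and of 72 genes of its initiatory program 48 were lower (66.7%) and none higher, with a median of -2.02. The fibrogenic list was chosen with the chronic libraries, so its count is not independent evidence of the direction. The initiatory list was drawn from acute 24 h and cultured HSCs, with none of the 8 libraries described here. The paper reports that many of its genes, Vcan among them, also belong to the fibrogenic program. The counts of the lists are therefore not separate results. Of the 172 fibrogenic genes 98 were still above healthy at 72 h and none was below it, against 7.88% and 4.2% of all genes. The paper chose these genes partly for being higher after chronic injury than in healthy HSCs. The count against healthy is therefore not independent evidence either.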

How the data were processed

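RNA of sorted mouse HSCs was sequenced by the authors as 75 base single-end reads. Their methods and processing notes name STAR, StringTie and FastQC and the GRCm38 genome. The versions, the annotation and whether strand was used are not given in the sources used here. The deposited values are raw read counts per gene for all 27 libraries, with no normalization. Reads carry no molecular identifiers, so counting floors (3 counts per library) cover counting error only.

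Samples were grouped by their GEO labels. Genes were kept by filterByExpr (18758 of 53379), scaled by TMM and fitted in 1 quasi-likelihood model over the 7 groups with edgeR 4.0.16 in R 4.3.3. A call required both a fold above 2 and a p below 0.05 after Benjamini-Hochberg adjustment over all tested genes. CPM of single genes were computed from TMM-scaled library sizes in edgeR, and the summed CPM of marker lists from unscaled library totals. The acute step, the difference between the steps and the comparison with healthy came from the same model, and DESeq2 1.42.0 was an alternative. The members and gene lists were chosen with earlier results of these data known. Genes named are list members, the 10 steepest called changes in each direction and the 5 widest called differences in each direction. Both of the latter sets required a mean log2 CPM above 3. The groups also had to be without overlap, for the differences in the chronic or the acute step. Single members named outside that rule (Med28) were chosen after their values were seen. Scripts were tested on simulated data. No pair of libraries was a repeat deposit, since replicates differed by 16.9 to 80.6 times counting variance. Positions and gene types were taken from GENCODE M21, and promoters from RefSeq GRCm38.p6. Replicate numbers did not pair the libraries. Some list members are not reported here. Alternatives changed scaling, filter, threshold, tool, samples fitted and depth class, and left out each library. The p-values rest on a spread estimated within the 7 groups of all 27 libraries, not on the 8 libraries of the step alone. Fitting only the groups compared gave 598 lower genes, 545 of them shared with the main fit. It gave 854 higher genes, 701 of them shared.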

Additional observations from a re-analysis of the deposited data

Results flagged for a closer look

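Single libraries stood apart from the other 3 of their group for 23 of 316 values examined, where chance gives about 1 in 20. At 24 h the library apart was replicate 1 for Col15a1 (99.7 CPM), Tnfrsf11b (702 CPM), Colec11 (619 CPM), Pdia6 (424 CPM), Hhip (22.8 CPM), Tmem100 (13.2 CPM) and the summed T and NK cell list (35.1 CPM), replicate 2 for Ccn5 (17.3 CPM), replicate 3 for Col5a1 (1170 CPM) and replicate 4 for Gadd45a (30.2 CPM) and Cyp26a1 (0.32 CPM). At 72 h it was replicate 4 for Acta2 (32.0 CPM), Tagln (176 CPM), Cnn1 (0.71 CPM), Tpm2 (14.7 CPM), Has2 (0.39 CPM), Mmp10 (0.24 CPM), Tcf21 (1724 CPM) and Bcat1 (0 CPM), replicate 3 for Col15a1 (47.4 CPM), Thbs1 (1151 CPM) and Itgav (114 CPM), and replicate 2 for Sqle (5.71 CPM). Of these, Acta2, Tagln, Cnn1, Tpm2, Has2 and Mmp10 were higher in 72 h replicate 4 than in the other 72 h libraries and are genes that fell over the step.

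The test of the difference between the chronic and the acute step called 1212 genes lower and 427 higher in chronic injury by edgeR. The differences on the log2 scale were -7.63 for Acta2, -7.14 for Fbln2, -7.07 for Cthrc1, -6.85 for Ccn5 and -6.82 for Nrep, and 4.64 for Hhip, 4.62 for Rasd1, 4.57 for Inmt, 4.08 for Tmem100 and 4.04 for Syt12. The step of Med28 differed by 6.64 between the higher-depth and the lower-depth libraries. What set these libraries and steps apart was not tested.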

How the results depend on the processing

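In the step 139 genes were examined singly, 123 of them called. Over 22 alternatives none reversed its direction where it was called in the main fit or in the alternative. Those that changed only the threshold reused the main fit, so no direction could reverse in them. Changes of sign without any call were not counted. Hgf and Ecm1, which were not called, had such a change between the lower-depth pairs (0.045 and 0.14, against -0.28 and -0.09 over all libraries). Leaving out each library in turn gave 499 to 782 lower and 642 to 1065 higher genes, and for the difference from the acute step 836 to 1289 lower and 286 to 589 higher. With no fold minimum 1508 genes were lower and 1417 higher. Tested against a 2-fold minimum, 97 were lower and 94 higher, and 316 and 50 for the difference. Without a filter on low counts the difference was lower for 791 genes. Between the lower-depth pairs alone 274 were lower and 158 higher (36.6% higher), and 60 of the 123 called genes lost their call there. The count of genes whose step differed between depth classes was 1 over all groups and 5 when only the groups compared were fitted. DESeq2 gave 726 lower and 1126 higher genes. The same replicate numbers did not pair the libraries (correlations of 0.155, 0.0714, 0.15 and 0.0638). Libraries of the same depth class deviated together whatever their number, with all 8 correlations between 0.0638 and 0.155, while 7 of the 8 across depth classes were negative, down to -0.15. With the replicate number as a block 681 genes were lower and 855 higher, or 571 and 760 with only the groups compared. The cause of these shifts was not tested beyond the stricter or looser rule itself. Depth limits the low genes: 72 higher genes had all 24 h libraries, and 20 lower genes all 72 h libraries, at 3 counts or fewer, and the folds of those named are given as bounds, since fitted folds of such genes are not.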
